A study of Mus musculus with 6 samples.

Results

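Rasgrf1, which loads RAS proteins with GTP, was examined on mouse 4T1 cell arrays together with 9 genes that respond to ERK (Dusp4, Dusp5, Dusp6, Spry1, Spry2, Spry4, Spred1, Etv4 and Etv5). The Dusp, Spry and Spred genes among them encode inhibitors that feed back on ERK signaling, and for short all 9 are called feedback genes below. These 10 genes were listed with earlier results of the same arrays known, in which Rasgrf1 had been called lower with the Mmp3 hairpin, so that Rasgrf1 was chosen by its own difference between the hairpin groups. What part the values of the other 9 had in the choice is not recorded. The differences of these genes between the hairpin groups are therefore given as descriptions, with a standard error (SE) and a 95% interval but no test. Of the 10, 9 had a probe in the array annotation used (19 probes of 45281), 8 had a probe with a detection p under 0.05 on 3 or more of 6 arrays, and the whole array gave 9348 such genes of 19053 with a probe. Spry1 was not analysed here for want of a probe in that annotation. The only Spry2 probe was detected on 0 of 6 arrays, with intensities of 93.5 to 111 that lay among the undetected probes.

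The arrays measured total RNA of 4T1 cells, a mammary carcinoma line of BALB/c mice, cultured in RPMI medium with fetal bovine serum. 4T1-SC cells (3 arrays) carried a scrambled short hairpin RNA, and 4T1-MMP3lo cells (3 arrays) carried a hairpin against Mmp3, which encodes the secreted protease stromelysin-1. Transfection was stable per the study's methods, with puromycin to select for the hairpin plasmid. The titles of the 4T1-MMP3lo arrays hold a code that may name a single clone, and the study describes the samples as biological triplicates, so n counts cultures. The study names each group as a cell population. An effect of the hairpin therefore cannot be told apart from any other difference between these populations. Each group had 1 array for each of 3 days named in the labels, which do not say what was done on that day. Replicates are numbered by day.

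RAS proteins switch between a GDP-bound and an active GTP-bound state. Exchange factors such as RASGRF1, best known from neurons and activated there by calcium, open the switch, and active RAS starts the RAF, MEK and ERK kinase cascade. ERK in turn raises the transcription of its own inhibitors and of PEA3-type ETS factors, so that the transcripts of Dusp, Spry, Spred and Etv4 or Etv5 genes are often read as a record of ERK activity.

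The windows of 250 bases before the transcription start are shown for Rasgrf1, which differed most between the groups, for Dusp6 and Spred1, which differed most by day among the feedback genes, and for Dusp5, whose window held the only motifs found. They are from RefSeq on the mouse build GRCm38.p6, all on the plus strand, at chr9:89909525-89909774 (Rasgrf1), chr19:53528895-53529144 (Dusp5), chr10:99262981-99263230 (Dusp6) and chr2:117120821-117121070 (Spred1), and capitals mark CArG boxes, the element bound by serum response factor.
Rasgrf1: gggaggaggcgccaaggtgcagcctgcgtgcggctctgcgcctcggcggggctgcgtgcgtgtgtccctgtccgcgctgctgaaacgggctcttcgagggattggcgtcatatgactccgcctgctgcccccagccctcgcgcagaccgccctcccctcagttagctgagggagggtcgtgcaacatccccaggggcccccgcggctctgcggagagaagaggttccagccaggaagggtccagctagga
Dusp5: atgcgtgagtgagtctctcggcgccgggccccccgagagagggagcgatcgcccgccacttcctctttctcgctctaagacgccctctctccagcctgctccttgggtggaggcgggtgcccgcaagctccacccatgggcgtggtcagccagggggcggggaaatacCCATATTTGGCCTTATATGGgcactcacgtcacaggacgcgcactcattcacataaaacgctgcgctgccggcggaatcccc
Dusp6: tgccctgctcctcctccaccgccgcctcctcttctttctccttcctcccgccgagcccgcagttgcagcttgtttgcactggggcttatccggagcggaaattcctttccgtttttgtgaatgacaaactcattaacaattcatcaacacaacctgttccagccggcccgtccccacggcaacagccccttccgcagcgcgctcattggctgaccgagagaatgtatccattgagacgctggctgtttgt
Spred1: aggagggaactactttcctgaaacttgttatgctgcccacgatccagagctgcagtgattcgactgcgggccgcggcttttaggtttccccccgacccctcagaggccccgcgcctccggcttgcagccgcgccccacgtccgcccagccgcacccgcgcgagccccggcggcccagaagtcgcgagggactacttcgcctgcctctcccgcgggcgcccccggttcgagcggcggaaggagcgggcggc

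Of the 10 genes, 7 were searched, with 8 windows because Etv5 has a pair of them. The search covered both strands for an AP-1 site (TGACTCA), a cyclic AMP response element (TGACGTCA), an ETS site (CCGGAAGT) and the CArG box. Dusp5 held 2 CArG boxes, 1 directly after the other, and the windows of Rasgrf1, Dusp6, Spred1, Spry1, Spry2 and Etv5 held none of the 4 motifs. Among 32851 windows of the same length, 4.46% held the AP-1 site, 1.55% the cyclic AMP response element, 2.88% the ETS site and 1.47% the CArG box. A match describes letters in the window and not a bound site.

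The median intensity of an array was between 96.6 and 112.6 and its share of detected probes between 36.9% and 38.8%, and 4T1-SC replicate 1 was lowest in both. Mmp3, the targeted gene, had about equal means in both hairpin groups. Its normalized log2 intensities were 11.52, 12.98 and 13.04 on the control arrays, in the order of the days, against 10.64, 13.40 and 13.33 on those labelled 4T1-MMP3lo, a difference of −0.06 (SE 0.74, 95% interval −1.75 to 1.64). The hairpin labels could therefore not be checked by their target, and "4T1-MMP3lo" below means the arrays labelled so. Of the epithelial markers Epcam, Cdh1, Krt8, Krt18, Krt19 and Cldn7, 5 of 6 were detected (Epcam was not), and Cldn7 was lower in 4T1-MMP3lo (−1.62 on the log2 scale, SE 0.24, adjusted p = 0.0241 from limma). Of 6 markers each, 1 fibroblast (Pdgfra), 1 endothelial (Kdr) and 1 neuronal marker (Map2) and, of 4 leukocyte markers with a probe, 1 (Cd3e) were detected, while Col1a1, Pecam1, Rbfox3 and Ptprc were not among the genes detected.

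Rasgrf1 was detected in every 4T1-SC array and in no 4T1-MMP3lo array. In bulk RNA, fewer expressing cells and less RNA per cell cannot be told apart. Its brightest probe, ILMN_1233146, had deposited intensities, in the order of replicates 1 to 3, of 128.3, 289 and 295.1 with the scrambled hairpin against 104.1, 103.9 and 116.1 with the Mmp3 hairpin. A separate probe for the same transcript, ILMN_2699663, gave 108, 225.6 and 219.9 against 107.2, 99.4 and 109.2. On both probes 4T1-SC replicates 2 and 3 stood well above the other arrays, and 4T1-SC replicate 1 lay close to the undetected level. The other 3 Rasgrf1 probes, annotated to other transcripts, were detected on 0, 0 and 1 of the 6 arrays, the latter being 4T1-SC replicate 2 at 122.9.

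**Figure D1:**
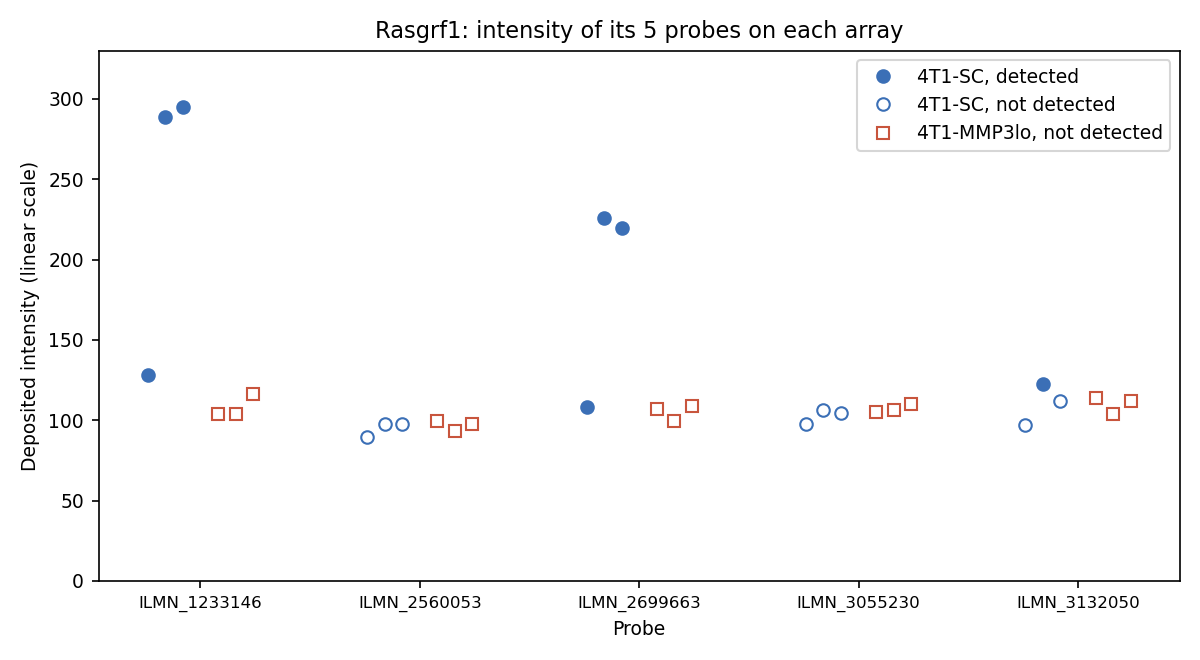
Deposited intensity (linear scale) of each of the 5 Rasgrf1 probes on the 6 arrays, with replicates 1 to 3 from left to right within a group; filled symbols are detected at p under 0.05. ILMN_1233146 and ILMN_2699663 were detected in all 3 4T1-SC arrays, highest in replicates 2 and 3, and in 0 of the 3 4T1-MMP3lo arrays.

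After background correction and quantile normalization, the log2 intensity of Rasgrf1 was 5.96, 7.43 and 7.72 in 4T1-SC against 4.41, 4.45 and 4.62 in 4T1-MMP3lo, and the groups did not overlap. Because no 4T1-MMP3lo array detected it, the difference has only a bound, computed against the lowest detected signal of each array. By the group means after this processing, Rasgrf1 was at least 4.86-fold lower by ILMN_1233146 (2.28 on the log2 scale) and at least 3.02-fold lower by ILMN_2699663. These bounds do not allow for the spread between arrays, and some other settings given below had differences smaller than 2.28. By day, the bound of the brightest probe was 2.38-, 6.27- and 7.72-fold for replicates 1, 2 and 3, and that of ILMN_2699663 was 1.32-, 4.25- and 4.88-fold, lowest in replicate 1 on both. The measured log2 difference was −2.54 (SE 0.41, 95% interval −3.49 to −1.60). It was −1.09 with no background correction and −1.58 with an offset of 50 in place of 16. Leaving out any 1 array gave differences of −3.08 (without 4T1-SC replicate 1) to −2.20 (without 4T1-SC replicate 3).

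The 7 measured feedback genes differed between the hairpin groups by −0.09 to 0.15 on the log2 scale, and the groups overlapped for each. Of the 8 measured genes, only Rasgrf1 was among those called between the hairpin groups at an adjusted p under 0.05 in limma. Of all genes, 1.09% were called (102 genes, or 194 with the day as a replicate block). The choice of genes used this contrast, and Rasgrf1 passed the detection filter only through its 4T1-SC arrays. Nothing is therefore read from this count of 1 among the 8 genes, or from the next ones. The count was 0 with no background correction, with the authors' normalized table, with an offset of 50, with no filter on detection, with the mean of all kept probes, and without any 1 array other than 4T1-SC replicate 1, and Rasgrf1 was not measured where detection on all 6 arrays was required. At an unadjusted p under 0.05 it was again 1 (12.2% of all genes). The groups did not overlap for 1 gene lower in 4T1-MMP3lo (Rasgrf1, 8.07% of all genes) and 0 genes higher (9.62% of all genes). Between the lowest and highest of the 6 arrays, each of the 7 measured feedback genes varied by 1.53- to 1.91-fold.

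**Figure D2:**
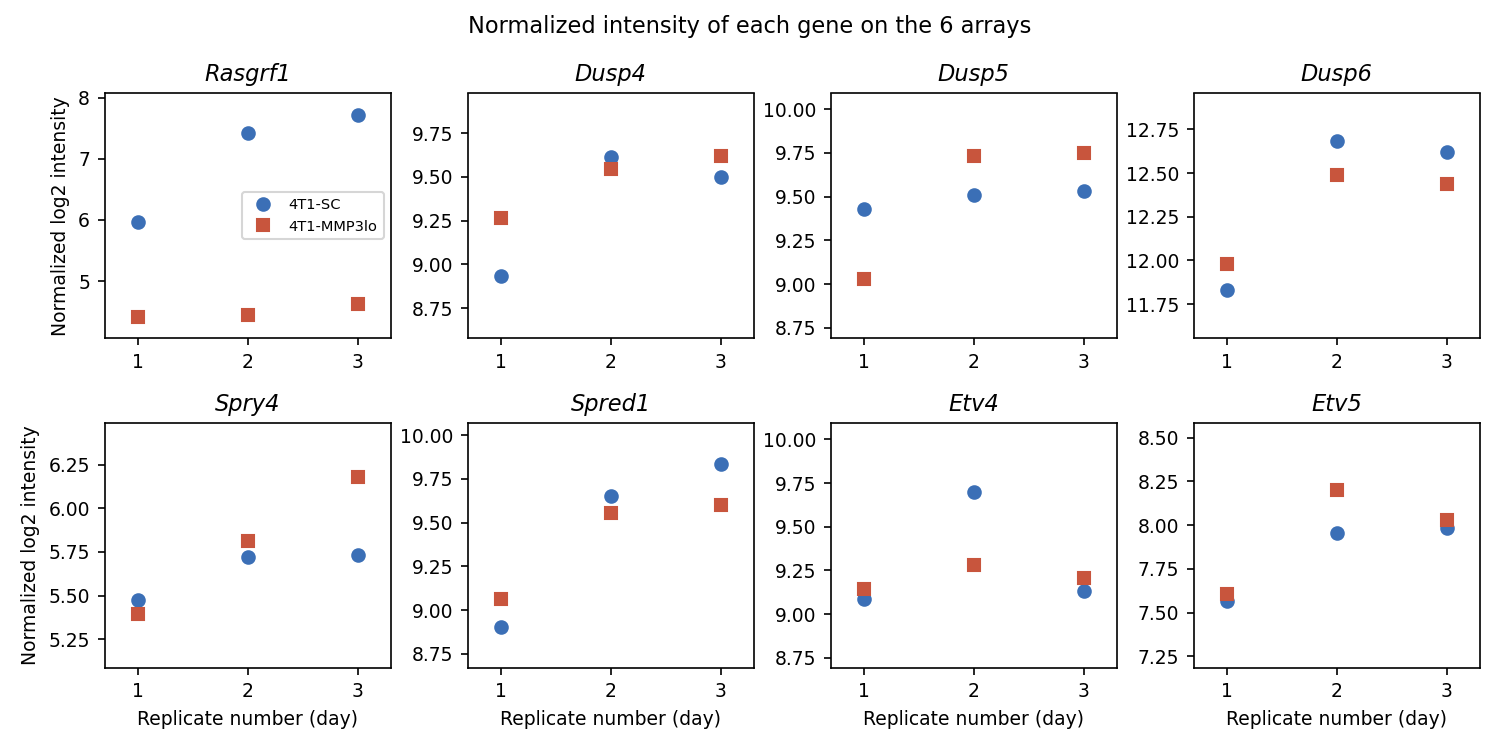
Normalized log2 intensity of the 8 measured genes on each array, by replicate number (1 per day) and hairpin group, with 1 point per array; the Rasgrf1 panel spans a wider range than the others. The groups separate for Rasgrf1, and for Dusp4, Dusp5, Dusp6, Spry4, Spred1 and Etv5 both replicate 1 arrays lie below the 4 others.

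The dual-specificity phosphatases remove phosphate from MAP kinases, Dusp4 and Dusp5 in the nucleus and Dusp6, which is selective for ERK, in the cytoplasm. Dusp6 had log2 intensities of 11.83, 12.68 and 12.62 in 4T1-SC against 11.98, 12.49 and 12.43 in 4T1-MMP3lo, a difference of −0.08 (SE 0.27, 95% interval −0.70 to 0.55). Dusp4 had 8.93, 9.61 and 9.50 against 9.27, 9.55 and 9.62, a difference of 0.13 (SE 0.23, −0.40 to 0.66). For both genes replicate 1 was the lowest array of its group, and the groups overlapped. Dusp5 had 9.43, 9.51 and 9.53 against 9.03, 9.73 and 9.75, a difference of 0.01 (SE 0.23, −0.52 to 0.55), and its 4T1-MMP3lo arrays spread more widely than its 4T1-SC arrays.

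Some phosphatase probes disagreed. The 4 Dusp4 probes correlated with each other at −0.12 to 0.93 over the 6 arrays, and ILMN_2450767 differed by −0.61 (SE 0.50) between the groups while the other 3 differed by 0.10, 0.11 and 0.13. That probe had intensities of 334.2, 1662.5 and 969.1 in 4T1-SC against 496.4, 538.8 and 742.9 in 4T1-MMP3lo, so that 4T1-SC replicate 2 stood apart on it. The 3 Dusp6 probes differed by −0.19, 0.20 and −0.08 and correlated at 0.38 to 0.84, and the pair of Etv5 probes differed by 0.11 and 0.14 and correlated at 0.92. The pair of detected Rasgrf1 probes correlated at 0.98.

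The Sprouty and Spred proteins restrain signaling from growth factor receptors to RAS and RAF, SPRED1 by bringing neurofibromin, which switches RAS off, to the membrane. Spred1 had log2 intensities of 8.90, 9.65 and 9.83 in 4T1-SC against 9.06, 9.56 and 9.60 in 4T1-MMP3lo, a difference of −0.06 (SE 0.28, 95% interval −0.70 to 0.59). Spry4 had 5.48, 5.72 and 5.73 against 5.40, 5.81 and 6.18, a difference of 0.15 (SE 0.23, −0.38 to 0.69). Spry4 was detected on all 6 arrays although its deposited intensities were only 115.2 to 174.4, near the undetected probes. In both genes replicate 1 was again the lowest array of each group.

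Etv4 and Etv5 are ETS transcription factors of the PEA3 type, induced by FGF and ERK signaling. Etv5 had log2 intensities of 7.57, 7.95 and 7.99 in 4T1-SC against 7.60, 8.20 and 8.03 in 4T1-MMP3lo, a difference of 0.11 (SE 0.22, 95% interval −0.40 to 0.62). Etv4 had 9.08, 9.70 and 9.13 against 9.15, 9.28 and 9.21, a difference of −0.09 (SE 0.21, −0.59 to 0.40). Etv4 was the exception in its pattern over arrays: 4T1-SC replicate 2 alone was high, and the other 5 arrays lay within 9.08 to 9.28.

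**Figure D3:**
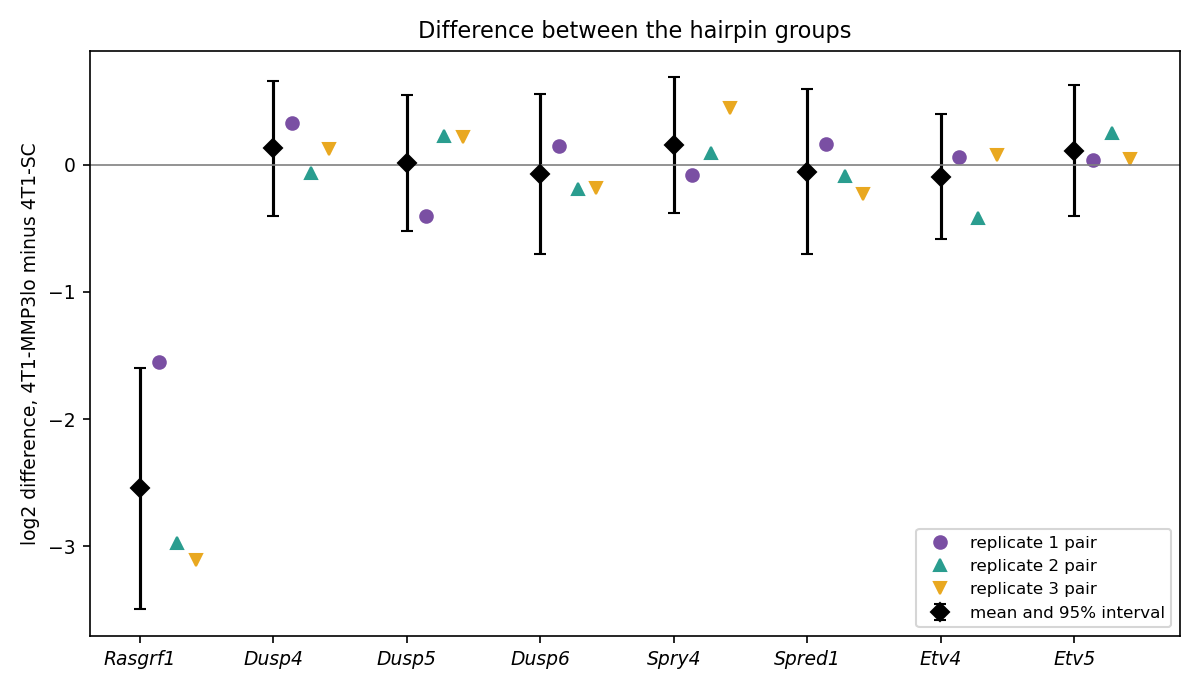
Log2 difference between 4T1-MMP3lo and 4T1-SC for each gene; diamonds are means with 95% intervals from limma and colored symbols are the differences within replicates 1, 2 and 3. Rasgrf1 was lower in all 3 pairs (−1.55, −2.97 and −3.10), and the intervals of the other 7 genes include 0.

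By the brightest probe of each of the 7 feedback genes, the lowest lower bound was −0.70 (Dusp6 and Spred1) on the log2 scale. The highest upper bound was 0.69 (Spry4). Some other detected probes of these genes had intervals beyond these limits. They were −1.74 to 0.53 for ILMN_2450767 of Dusp4, and −1.05 to 0.68 for ILMN_1248537 and −0.52 to 0.93 for ILMN_2701321 of Dusp6. In the 3 day-matched pairs, Dusp6 gave 0.15, −0.19 and −0.19, and Spred1 gave 0.16, −0.09 and −0.23, so the sign turned with the day for both. Etv5 had the same sign in all 3 pairs, at 0.04, 0.25 and 0.05. The median difference of the 8 measured genes was −0.02 against 0.02 for all genes tested.

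By the brightest probe of each gene, the days differed in the same direction for every measured gene. For all 8 measured genes the mean of the first day (replicate 1 of both groups) was below the mean of the later days, and the median difference was −0.46 on the log2 scale against 0.02 for all genes tested, of which 47.8% were negative. Both first-day arrays lay below all 4 later arrays for 6 genes (Dusp4, Dusp5, Dusp6, Spry4, Spred1 and Etv5), a pattern held by 14.9% of all genes, and above them for 0 (18.7% of all genes). This count was taken after the values were seen and came out at 6 or 7 under every setting tried in processing or without any single array, where 11.1 to 27.5% of all genes held the pattern. Among the less bright detected probes, ILMN_2608995 of Dusp4 did not hold it, with a first-day difference of −0.04. Those of Dusp6 and Etv5 and the remaining Dusp4 probes did.

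Tested over the 3 days with limma's F test and the hairpin group as a term, 0 of the 8 genes passed an adjusted p of 0.05 (0.171% of all genes did), and 2, Dusp6 and Spred1, had an unadjusted p under 0.05 (13.4% of all genes). Spred1 differed by −0.68 (SE 0.19, 95% interval −1.13 to −0.23, adjusted p = 0.33 from the F test) and Dusp6 by −0.65 (SE 0.19, −1.10 to −0.20, adjusted p = 0.344). Dusp4 differed by −0.47 (SE 0.19), Etv5 by −0.46 (SE 0.18), Spry4 by −0.43 (SE 0.20) and Dusp5 by −0.40 (SE 0.21), with adjusted p of 0.457, 0.45, 0.488 and 0.58. Etv4 differed least, by −0.22 (SE 0.20, adjusted p = 0.616). Rasgrf1 differed by −0.87 (SE 0.33, adjusted p = 0.43), nearly all of it from 4T1-SC, and it passed the F test only without 4T1-MMP3lo replicate 1 (−1.61, adjusted p = 0.0414).

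**Figure D4:**
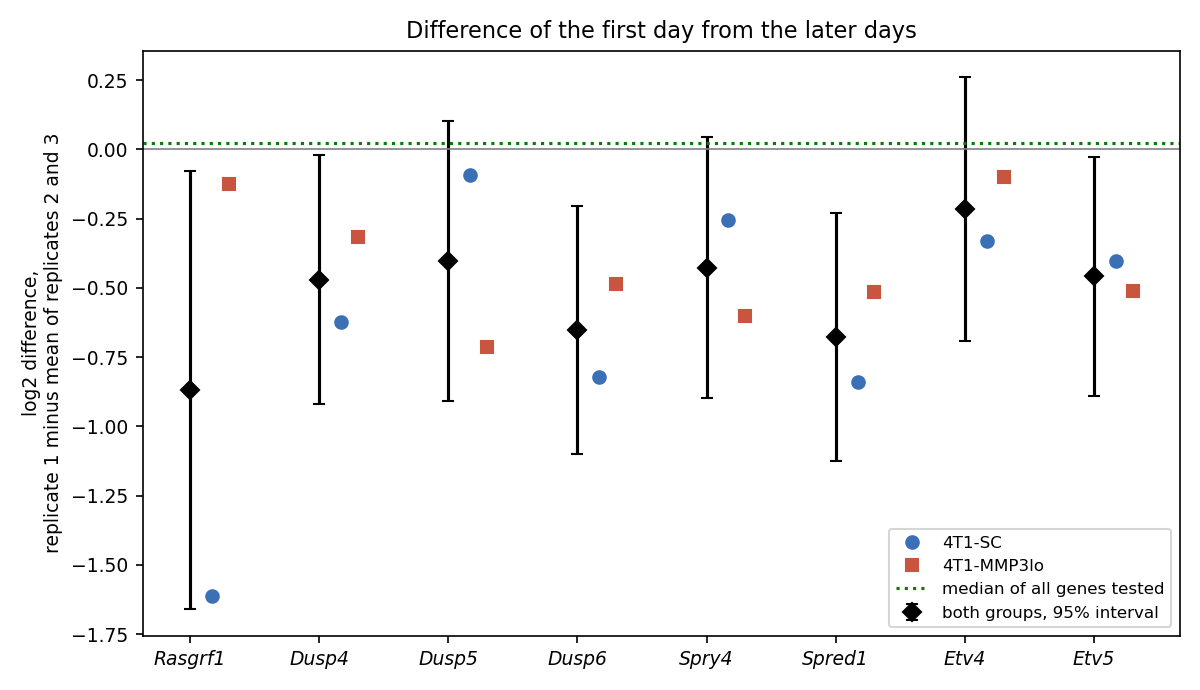
Log2 difference of replicate 1 from the mean of replicates 2 and 3 for each gene; diamonds are both groups together with 95% intervals from limma, circles 4T1-SC and squares 4T1-MMP3lo, and the dotted line is the median of all 9348 genes tested. All 8 diamonds lie below 0, from −0.22 for Etv4 to −0.87 for Rasgrf1.

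Mmp3 moved with the days in the same direction (−2.11, SE 0.30, adjusted p = 0.142 from the F test). Before normalization 4T1-SC replicate 1, a first-day array, was the dimmest, with a median intensity of 96.6. The other first-day array, 4T1-MMP3lo replicate 1, had a median of 108.3 and the largest share of detected probes. The part of Mmp3 or of array brightness in the feedback genes was not tested. The day cannot be told apart from anything else that the arrays of a day shared.

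Within the hairpin groups, the first-day difference of Spred1 was −0.84 in 4T1-SC and −0.52 in 4T1-MMP3lo, and that of Dusp6 was −0.82 and −0.48. Dusp5 ran the other way, with −0.09 in 4T1-SC and −0.71 in 4T1-MMP3lo. A fit with a term for the difference between the groups, added after the values were seen, passed for 0 of the 8 genes at an adjusted p of 0.05 in limma, where 0.877% of all genes passed. At an unadjusted p under 0.05 it gave 1 of the 8 genes (16.3% of all genes). That gene was Rasgrf1, whose 4T1-MMP3lo arrays all lay at the undetected level, so that its term restates the day difference of 4T1-SC and is not read as a difference between the groups. The estimate was −0.62 (SE 0.27, adjusted p = 0.331) for Dusp5, and the adjusted p of the other 6 feedback genes was 0.585 to 0.879.

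Over the 6 arrays, the 7 feedback genes correlated with each other at a Pearson r of 0.18 to 0.97 (21 pairs, median 0.68), while Rasgrf1 correlated with them at −0.11 to 0.45. These are descriptions over 6 arrays that share the same days. Among the 3006 genes with a range of at least 1 on the log2 scale, the pattern of Rasgrf1 was most like that of Il17re (r = 0.997), a receptor of the interleukin-17 family, and Shisa7 (r = 0.997). Il17re had log2 intensities of 6.44, 7.31 and 7.31 in 4T1-SC against 5.69, 5.81 and 5.84 in 4T1-MMP3lo. That these did not overlap comes with its choice by likeness to Rasgrf1, which 81 genes matched at an r over 0.95.

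Spred1 was most like Cish (r = 0.999), a cytokine-induced inhibitor of JAK-STAT signaling, and the chemokine gene Cx3cl1 (r = 0.997). Dusp6 was most like the tetraspanin gene Cd82 (r = 0.996) and Fam214b (r = 0.995), and Dusp4 like the sarcoglycan gene Sgcb (r = 0.995) and the MEK-activating kinase gene Map3k8 (r = 0.993). Map3k8 had log2 intensities of 5.80, 6.90 and 6.56 in 4T1-SC against 6.27, 6.74 and 6.84 in 4T1-MMP3lo, lowest in replicate 1 of each group. This pattern comes with its choice by likeness to Dusp4, which 68 genes matched at an r over 0.95. Dusp5 was most like the hexokinase gene Hk1 (r = 0.987) and the natriuretic peptide gene Nppb (r = 0.981), and Etv5 like Plvap (r = 0.988) and H2-M3 (r = 0.987). Etv4 was most like Rabgap1l (r = 0.994) and Gm12657 (r = 0.981), and Spry4 like Enpp5 (r = 0.979) and the GABA receptor gene Gabrd (r = 0.956).

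The rest of the pathway was read from 10 lists of 90 genes, of which 59 were measured. At an adjusted p under 0.05 from limma, 0 of the 59 rose and 0 fell between the hairpin groups, and 6 (Dusp1, Dusp7, Dusp10, Egr1, Ets2 and Gab1) had an unadjusted p under 0.05, which is 10.2% of the 59 against 12.2% of all genes. The methods' t-test at its own threshold gave 2, limma with array weights 18, limma with the day as a replicate block 1 (Dusp1, adjusted p = 0.0492, against 0.269 without it), and limma without 4T1-SC replicate 1 gave 3 (Ets2, Flrt3 and Gab1). Of the same 59 genes, the groups did not overlap for 5 lower (8.47%, against 8.07% of all genes) and 3 higher (5.08%, against 9.62%) in 4T1-MMP3lo, shares near or below those of all genes.

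Above RAS, Gab1, a docking protein downstream of growth factor receptors, had log2 intensities of 7.63, 7.84 and 8.17 in 4T1-SC against 7.01, 6.57 and 6.59 in 4T1-MMP3lo. The groups did not overlap, and the difference was −1.16 (SE 0.22, adjusted p = 0.0557). It was the largest difference of the 7 measured adaptors and phosphatases upstream of RAS, followed by the ubiquitin ligase gene Cblb (−0.35, SE 0.31). Among the 7 measured receptors, Pdgfra differed by 0.93 (SE 0.45) and Erbb2 by −0.43 (SE 0.20), and neither passed the test.

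At the level of RAS itself the differences were small. The other 3 measured exchange factors included Rasgrp4 at 0.33 (SE 0.24) and Sos2 at −0.08 (SE 0.27), so that none resembled Rasgrf1 in size, and Rasgrf2, Rasgrp1, Rasgrp2 and Rasgrp3 were not detected on 3 arrays. Of the 4 measured RAS GTPases, Nras differed by 0.19 (SE 0.19) and Rras by 0.04 (SE 0.31). Of the 7 measured GTPase-activating proteins, which switch RAS off, Rasa1 differed by −0.36 (SE 0.24) and Rasa3 by 0.27 (SE 0.19), and of the 5 measured kinases and scaffolds, Map2k1 by −0.33 (SE 0.40) and Araf by −0.13 (SE 0.23).

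Several output genes outside the 10 had larger differences, none of which passed the test. Dusp1, an immediate early MAP kinase phosphatase, had log2 intensities of 8.46, 9.32 and 9.13 in 4T1-SC against 9.32, 10.19 and 10.46 in 4T1-MMP3lo, a difference of 1.02 (SE 0.34), and Dusp10, which acts on p38 and JNK, differed by 0.80 (SE 0.27). Ets2, an ETS factor phosphorylated by ERK, had 10.87, 11.46 and 11.54 against 10.30, 10.12 and 10.23, a difference of −1.07 (SE 0.22, adjusted p = 0.0763) with no overlap, while Ets1 differed by 0.49 (SE 0.25). The FGF-induced membrane protein gene Flrt3 had 7.94, 10.63 and 10.25 against 8.20, 8.84 and 8.81, a difference of −0.99 (SE 0.62), and Spred2 differed by −0.07 (SE 0.30). Among 11 measured output genes, the immediate early factor Egr1 differed by 0.78 (SE 0.25) and the chromatin protein gene Hmga2 by 0.58 (SE 0.30).

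**Figure D5:**
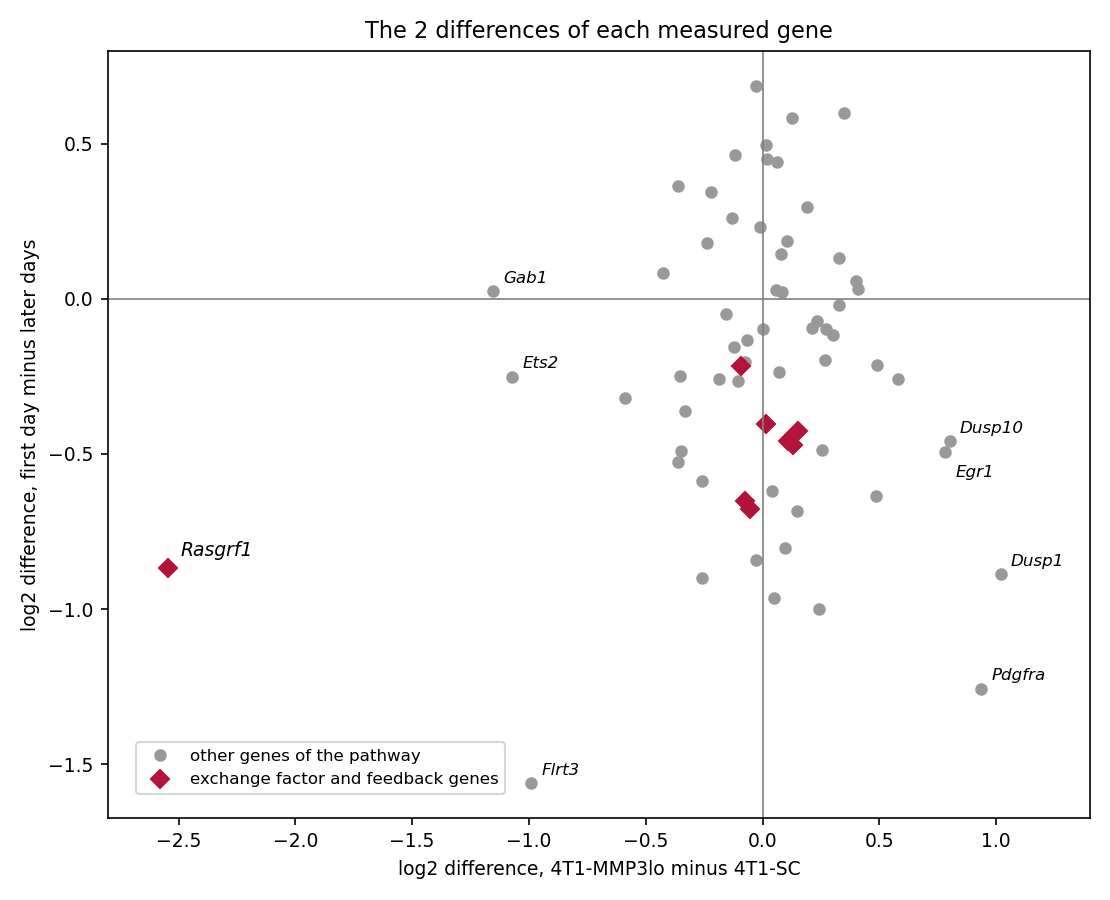
Log2 difference between 4T1-MMP3lo and 4T1-SC (horizontal) against the log2 difference of the first day from the later days (vertical), 1 point per gene, for the 8 measured exchange factor and feedback genes (diamonds) and the 59 other measured genes of the pathway (circles). Apart from Rasgrf1 the diamonds lie near 0 on the horizontal axis and below 0 on the vertical one.

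By day, 0 of these 59 genes passed limma's F test at an adjusted p under 0.05 and 11 had an unadjusted p under 0.05 (18.6%, against 13.4% of all genes). Both first-day arrays were lowest for 13 (22.0%, against 14.9% of all genes) and highest for 8 (13.6%, against 18.7%). The 13 included Etv1, the remaining PEA3-type factor, with log2 intensities of 7.99, 8.90 and 9.12 in 4T1-SC against 8.26, 9.17 and 9.31 in 4T1-MMP3lo and a first-day difference with a 95% interval of −1.42 to −0.58 (adjusted p = 0.22). They also included Flrt3 (−1.56, SE 0.40, adjusted p = 0.303), which was the only one to pass the F test in any fit, without 4T1-MMP3lo replicate 1. Etv1 was named after its values were seen.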

How the data were processed

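Total RNA of 6 4T1 cultures was measured on Illumina MouseWG-6 bead arrays. The authors deposited the linear scanner intensity of every probe, with no normalization visible in it, and beside it a detection p-value. A second deposited table, of log2 values, matched quantile-normalized intensities with no background correction. The software and its settings are not given in the sources used here. Of 45281 probes, 34885 have 1 symbol in the annotation, 18 several, and 10378 are unnamed.

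Intensities and detection p-values were background-corrected and normalized with neqc (offset 16) of limma 3.58.1 in R 4.3.3. A probe was kept where its detection p was under 0.05 on 3 or more arrays of 6 (16969 probes), and the brightest kept probe stood for each gene (9348 genes). Hairpin groups were compared with lmFit and eBayes without a block, and the 3 days with a moderated F test beside the group term, with Benjamini-Hochberg adjustment over all genes. With 3 arrays in each group, their number limits the precision. Both comparisons were run on simulated data with 200 changed genes. The simulated noise was independent for each array, so this run does not cover variation that the arrays of a day share. The methods' t-test was run as an alternative at more than 2-fold and p under 0.01. Python 3.11.15 with matplotlib 3.10.9 drew the figures.

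The labels give 1 array of each group the same day, and this pairs replicates. Deviations from the group means correlated at 0.44, 0.21 and 0.28 for replicates 1, 2 and 3, and at 0.31 and 0.23 for replicates 2 and 3 crossed, so that these were not told apart.

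The 10 genes, the 10 pathway lists and the 5 marker lists were chosen with earlier results of these data known. Named genes are the 10, Mmp3, in each list up to 4 called genes or else the 2 with the largest difference, and for each measured gene the 2 most correlated others with a range of at least 1 on the log2 scale.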

Additional observations from a re-analysis of the deposited data

How the results depend on the processing

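The number of genes called depended strongly on the processing. The values of the feedback genes mostly moved by less than the standard deviation within groups. The hairpin difference of Rasgrf1 did depend on the processing, at −2.54 in the main setting and −1.09 with no background correction. Between the hairpin groups 102 genes were called. This was 12 with no background correction or with the authors' normalized table, 38 with an offset of 50, 50 with probes detected on all 6 arrays, 30 with no filter, 3103 with array weights, 194 with the day as a replicate block, and 0 by the methods' t-test after Benjamini-Hochberg adjustment (120 at its own threshold). Leaving out 1 array gave 0 to 1000, with 1000 without 4T1-SC replicate 1. Of the 59 pathway genes 0 were called, or 18 with array weights, 1 with the replicate block, 2 at the methods' threshold, and 0 to 3 without 1 array. Over the days 16 genes were called, or 0 with no background correction, the authors' table, no filter or no group term, 9 with arrays shifted to the same median, 45 by the contrast of the first with the later days, and 0 to 266 without 1 array (266 without 4T1-MMP3lo replicate 1). The day count of pathway genes was 0 to 1.

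Of 262 values of the 8 genes under alternatives, 0 reversed a called value, 6 moved by at least the standard deviation within groups and 10 lost the call. In the counts of this paragraph, no background correction and the authors' normalized table are separate alternatives although they gave the same values. The only called value was the hairpin difference of Rasgrf1, which lost its call under 10 of 14 alternatives and ranged from −3.08 to −1.09. The counts of reversed values and lost calls therefore concern this difference alone. It was called with the replicate block too, which changed no other call of the 8 genes. Rasgrf1 was chosen by this contrast, so its calls are not read as support. The smaller hairpin differences of the feedback genes changed sign under some settings and their day differences under none. Probes near the undetected level, those of Rasgrf1 and Spry4, carry the least precision. The causes were not tested.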
